A study of Mus musculus with 12 samples.

Results

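The acyl-CoA dehydrogenases are flavoproteins that take the first step in breaking down an acyl-CoA, the removal of a pair of hydrogens next to the thioester. Their 10 genes named Acad in the mouse were followed here in kidney RNA from mice lacking FAN1, a DNA repair nuclease, in the proximal tubule. The members were the rows whose NCBI Gene number belongs to Acadvl, Acadl, Acadm, Acads, Acadsb, Acad8, Acad9, Acad10, Acad11 or Acad12, and all 10 were found among the 27179 genes measured. All 10 passed the filter on low values, as did 14972 genes in all.

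The libraries came from whole kidneys of 12 mice, with 3 in each of 4 groups. FAN1KO mice (genotype γGT1-Cre;Fan1-/-) and wild-type mice received saline, or cisplatin at 2 mg/kg by weekly intraperitoneal injection for 5 weeks. All were 8 to 12 weeks old and of a mixed strain background by the labels, and the study's methods describe a backcross to 129Sv-Elite and the use of both sexes. In FAN1KO mice the Cre is driven by the Ggt1 promoter and deletes Fan1 in proximal tubule cells, so other kidney cells keep the gene, and the labels do not say whether wild-type mice carried the Cre. Nothing in the labels ties mice to litters or days, so p-values measure the spread between these mice only.

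Proximal tubule cells draw most of their energy from oxidizing fatty acids, and the members divide that work by the length and shape of the acyl chain. The very-long-, long-, medium- and short-chain enzymes pass a fatty acid down as it shortens, while the short/branched-chain enzyme and Acad8 act on intermediates of isoleucine and valine breakdown. These chain-length and branched-chain enzymes pass their electrons to the electron transfer flavoprotein, and from there the electrons reach the respiratory chain.

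The libraries held 37196407 to 82935965 reads assigned to genes, and members were counted from 971 (Acad12) to 118973 (Acadm) reads per library. The targeted gene does not check the labels. Fan1 was at 3.80, 3.35 and 1.98 TPM (transcripts of this gene among 1000000) in wild-type saline kidneys and at 1.17, 1.54 and 2.28 TPM in FAN1KO saline kidneys. Under cisplatin it was at 2.33, 3.57 and 3.32 TPM in wild-type and at 2.72, 3.51 and 1.55 TPM in FAN1KO kidneys, so the genotypes overlapped, and other kidney cells also contribute this RNA. One library in each group carried RNA of 4 Y-linked genes, at a mean log2(TPM + 1) of 3.46 to 3.93 against at most 0.10 in the other 8 libraries. FAN1KO cisplatin kidneys also stood apart in mitochondrially encoded RNA, 10.2% to 16.7% of TPM against 18.3% to 22.7% in the other 9 libraries.

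Acadm gave the most RNA of the family in all 12 libraries. In wild-type saline kidneys its mean was 1330 TPM, followed by Acadvl at 323, Acads and Acadl at 221 each, Acad11 at 103, Acadsb at 80.5, Acad10 at 67.1, Acad8 at 58.4, Acad9 at 53.4 and Acad12 at 37.7 TPM, a scale that is already per transcript length. Acads and Acadl overlapped, as did each step from Acad11 down to Acad9. By mean TPM, Acadvl dropped from the second to the fifth place in FAN1KO saline kidneys, overlapping Acad11 above and Acadsb below it. That mean was raised by 1 mouse (179 TPM, against 44.3 and 38.5 TPM), so single mice ranked differently. In FAN1KO cisplatin kidneys its mean took the fourth place, overlapping Acads above and Acad11 below it. The summed TPM of the 10 genes was 2488 to 2508 in wild-type saline, 1521 to 1827 in FAN1KO saline, 2236 to 2432 in wild-type cisplatin and 1008 to 1174 in FAN1KO cisplatin kidneys. Both FAN1KO ranges lay below both wild-type ranges. Without Acadm and Acadvl the saline sums overlapped, at 797 to 894 TPM in wild-type and 734 to 889 TPM in FAN1KO kidneys. The cisplatin sums without them did not overlap, at 753 to 877 and 538 to 657 TPM in the same order.

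**Figure D1:**
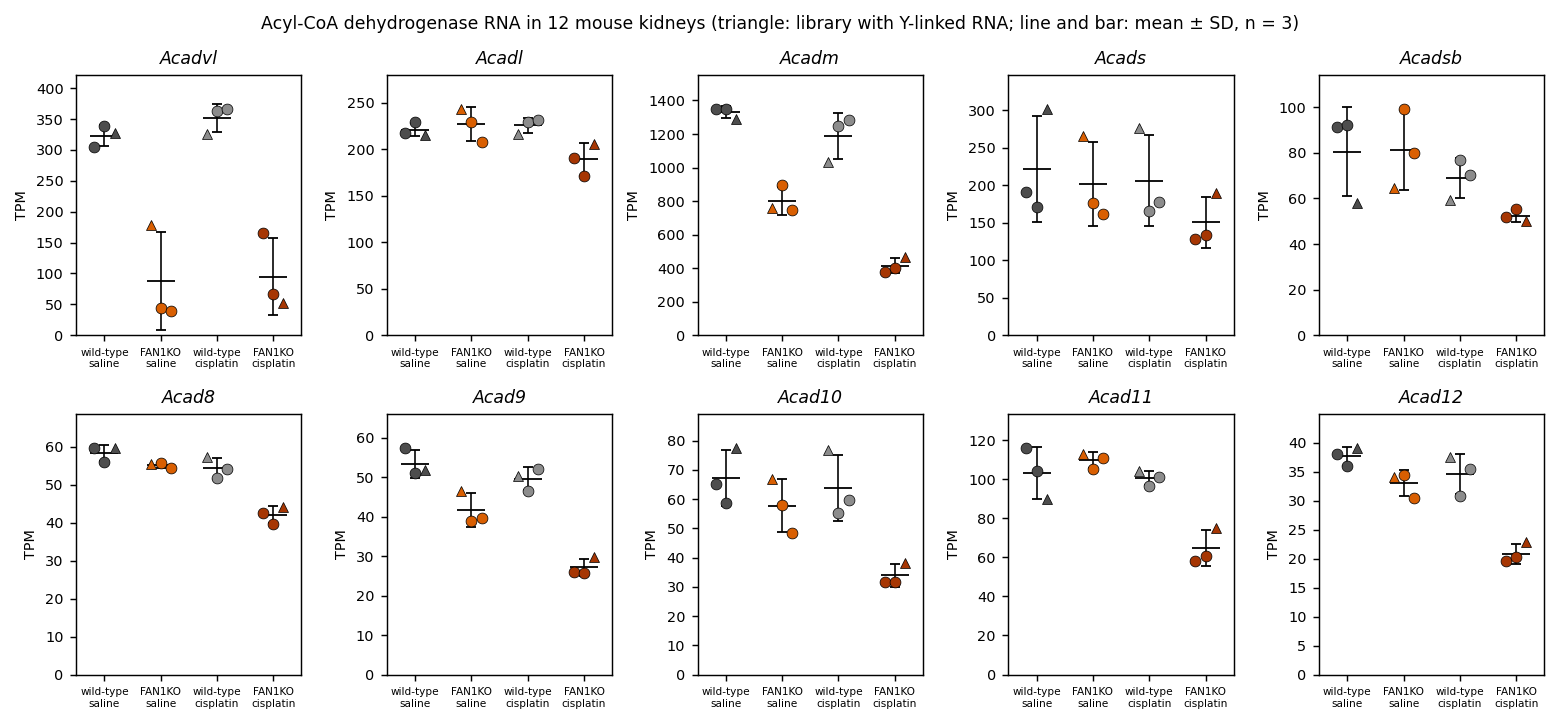
TPM of each of the 10 members in each library (points; triangles mark the library of each group with Y-linked RNA), with the group mean and SD of 3 mice; each vertical axis starts at 0. Acadm and Acadvl were lower in FAN1KO than in wild-type kidneys under saline and under cisplatin, and most other members were lowest in FAN1KO cisplatin kidneys.

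The very-long-chain enzyme, encoded by Acadvl (NCBI Gene 11370, chr11:70010183-70015428, GRCm38), handles the longest fatty acids that enter mitochondria. Its RNA stood at 304, 338 and 327 TPM in wild-type saline and at 179, 44.3 and 38.5 TPM in FAN1KO saline kidneys. With cisplatin it was at 326, 363 and 367 TPM in wild-type and at 166, 67.1 and 51.6 TPM in FAN1KO kidneys. No FAN1KO library reached the lowest wild-type library, and within each FAN1KO group 1 mouse, the mouse numbered 1, lay far above the other 2. That mouse carried Y-linked RNA in the saline group and did not in the cisplatin group. The coefficient of variation was 91.0% in FAN1KO saline and 65.5% in FAN1KO cisplatin kidneys, against 5.27% and 6.46% in the wild-type groups. Mean TPM was 3.70 times lower in FAN1KO than in wild-type kidneys under saline and 3.71 times lower under cisplatin. On the log2(TPM + 1) scale, limma's moderated test with Benjamini-Hochberg adjustment over all genes gave −2.06 under cisplatin (SE 0.54, adjusted p = 0.0205) and −2.24 under saline (SE 0.54, adjusted p = 0.121), which missed the threshold of 0.05. Without FAN1KO saline mouse 1 the saline difference was −2.94 with an adjusted p of 0.0112, and over the 12 fits with 1 library left out it ranged from −2.94 to −1.84. The cisplatin call was lost when wild-type cisplatin mouse 1 or FAN1KO cisplatin mouse 2 or 3 was left out, with adjusted p of 0.0526, 0.0722 and 0.0572. Of 2119 stretches of 50 bases in its longest coding transcript, 24.0% also occur in transcripts annotated to the neighbouring gene Dvl2, and Mir324 lies inside the gene, so reads there are uncertain. Dvl2 itself averaged 5.99 TPM (saline) and 7.11 TPM (cisplatin) in wild-type and 5.76 TPM and 9.76 TPM in FAN1KO kidneys, and was not called in any comparison.

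The long-chain enzyme Acadl (11363, chr1:66830839-66863309), which acts on long and branched chains, showed no such drop. It was at 218, 229 and 216 TPM in wild-type saline, 244, 230 and 208 TPM in FAN1KO saline, 217, 229 and 232 TPM in wild-type cisplatin and 191, 171 and 206 TPM in FAN1KO cisplatin kidneys. The FAN1KO cisplatin libraries lay just below all others. Against wild-type cisplatin kidneys the log2 difference was −0.26 (SE 0.09, limma adjusted p = 0.0717), and against FAN1KO saline kidneys it was also −0.26 (SE 0.09, adjusted p = 0.0479). The latter call was lost in 12 of 22 alternatives. None of its transcript's 50-base stretches occurs in another gene's transcripts.

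Acadm (11364, chr3:153922353-153944643) encodes the medium-chain enzyme, whose inherited loss in people impairs the use of fat during fasting. It was at 1350, 1352 and 1287 TPM in wild-type saline and at 759, 894 and 748 TPM in FAN1KO saline kidneys. The cisplatin groups had 1033, 1250 and 1284 TPM in wild-type and 379, 403 and 465 TPM in FAN1KO kidneys. The genotypes did not overlap under either treatment, and the FAN1KO cisplatin libraries lay below every FAN1KO saline library. Acadm fell 1.66-fold with the genotype under saline (log2 −0.74, SE 0.13, limma adjusted p = 0.0250) and 2.86-fold under cisplatin (log2 −1.51, SE 0.13, adjusted p = 8.84e-05). Within FAN1KO mice it fell 1.92-fold with cisplatin (log2 −0.94, SE 0.13, adjusted p = 5.06e-04), while in wild-type mice the difference was −0.17 (SE 0.13, adjusted p = 1.00). The genotype effect was larger under cisplatin by −0.78 (SE 0.18, interaction adjusted p = 0.0331). The saline and interaction calls were near the threshold, and leaving out 1 library at a time moved their adjusted p between 0.0170 and 0.116 and between 0.0245 and 0.0916. The call under cisplatin was kept throughout, at adjusted p of 9.02e-04 or less in those refits.

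The stretch just upstream of each of these 2 genes is shown because nuclear receptors are known regulators of fatty acid oxidation genes. Both are the 250 bases before the RefSeq start site (GRCm38.p6, read along the gene's minus strand, 5′ to 3′). The Acadm window is chr3:153944644-153944893 and the Acadvl window chr11:70015429-70015678, and no exon of the GENCODE annotation lies in either. Capitals mark the only match in each to the nuclear receptor element AGGTCA, or its extended form AAGGTCA, on either strand.
Acadm: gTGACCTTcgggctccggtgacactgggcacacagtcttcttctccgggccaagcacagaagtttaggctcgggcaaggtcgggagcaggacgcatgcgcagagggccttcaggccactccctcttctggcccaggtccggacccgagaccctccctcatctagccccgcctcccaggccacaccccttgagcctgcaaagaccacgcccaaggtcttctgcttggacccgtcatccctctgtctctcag
Acadvl: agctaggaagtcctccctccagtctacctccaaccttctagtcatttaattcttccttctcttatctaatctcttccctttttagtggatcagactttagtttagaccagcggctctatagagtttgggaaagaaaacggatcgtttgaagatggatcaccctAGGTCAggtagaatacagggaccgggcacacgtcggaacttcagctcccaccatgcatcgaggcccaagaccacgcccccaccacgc
The Acadm match began 249 bases before the start, on the opposite strand, and held the extended form bound by estrogen-related receptors. The Acadvl match began 87 bases before the start and held the AGGTCA element alone. The shorter element is part of the extended form, so their counts overlap. Among the 9 members with an upstream sequence, these 2 were the ones with a match. Of 27025 promoters of the same length, 13.8% held the AGGTCA element, 4.05% the extended form, and 0.0370% 2 AGGTCA elements in the same direction spaced by 1 base, which no member held. A match is a description of these letters and not a bound site.

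**Figure D2:**
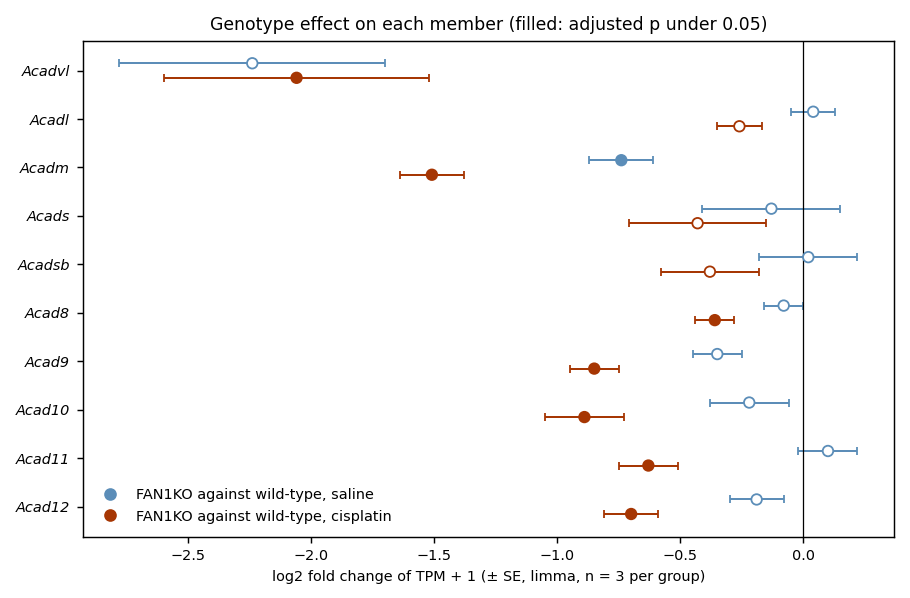
Log2 fold change of TPM + 1 (points, with SE; limma, 3 mice per group) between FAN1KO and wild-type kidneys for each member, under saline (blue) and cisplatin (brown); filled points had an adjusted p under 0.05. Under saline Acadm alone was filled, at −0.74, and under cisplatin 7 members were, from −0.36 for Acad8 to −2.06 for Acadvl.

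Acads (11409, chr5:115110299-115119346), the short-chain enzyme, spread widely within every group. Wild-type saline kidneys had 191, 171 and 302 TPM and FAN1KO saline kidneys 265, 176 and 162 TPM. The values were 276, 165 and 177 TPM in wild-type cisplatin and 128, 133 and 190 TPM in FAN1KO cisplatin kidneys. The highest library of every group was the one with Y-linked RNA. That library exceeded the mean of its group's other 2 by 1.67, 1.57, 1.61 and 1.46 times, in the same order. With mean Y-linked log2(TPM + 1) added to the limma fit, the Acads coefficient was 0.177 per unit (SE 0.017, adjusted p = 1.09e-04). In that fit 6.29% of all genes tested had a called coefficient above 0 and 49.5% below 0. The genotype difference under cisplatin was −0.43 without this term (SE 0.28, adjusted p = 0.279) and −0.45 with it (adjusted p = 0.00140). In the 8 libraries without Y-linked RNA it was −0.39 (adjusted p = 0.0172).

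Of the branched-chain enzymes, Acadsb (66885, chr7:131410601-131446211) acts on 2-methylbutyryl-CoA from isoleucine. It was at 91.3, 92.1 and 58.0 TPM in wild-type saline, 64.6, 99.4 and 79.9 TPM in FAN1KO saline, 59.4, 76.9 and 70.3 TPM in wild-type cisplatin and 51.9, 55.3 and 50.2 TPM in FAN1KO cisplatin kidneys. The library with Y-linked RNA was the lowest of each group, the reverse of Acads, and the coefficient was −0.10 per unit (SE 0.025, limma adjusted p = 0.00754), a direction shared with the 49.5% of genes named above. Acadsb fell with cisplatin in FAN1KO mice (log2 −0.60, SE 0.20, adjusted p = 0.0334; 0.0649 to 0.109 without FAN1KO saline mouse 2 or 3 or any 1 FAN1KO cisplatin mouse), and against wild-type cisplatin kidneys the difference was −0.38 (SE 0.20, adjusted p = 0.183). An exon of Ikzf5 lies in the stretch just upstream of the Acadsb start site. Acad8 (66948, chr9:26974138-26999571), which acts on isobutyryl-CoA from valine, spread by 1.23% to 5.53% (coefficient of variation) within groups. It was at 59.6, 55.9 and 59.7 TPM in wild-type saline, 55.4, 55.6 and 54.3 TPM in FAN1KO saline, 57.2, 51.8 and 54.0 TPM in wild-type cisplatin and 42.6, 39.6 and 44.1 TPM in FAN1KO cisplatin kidneys. All 3 FAN1KO cisplatin libraries lay below the other 9, and Acad8 fell 1.29-fold against wild-type (log2 −0.36, SE 0.08, adjusted p = 0.0103). Fitted to the 6 cisplatin libraries alone, its adjusted p was 0.0580.

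**Figure D3:**
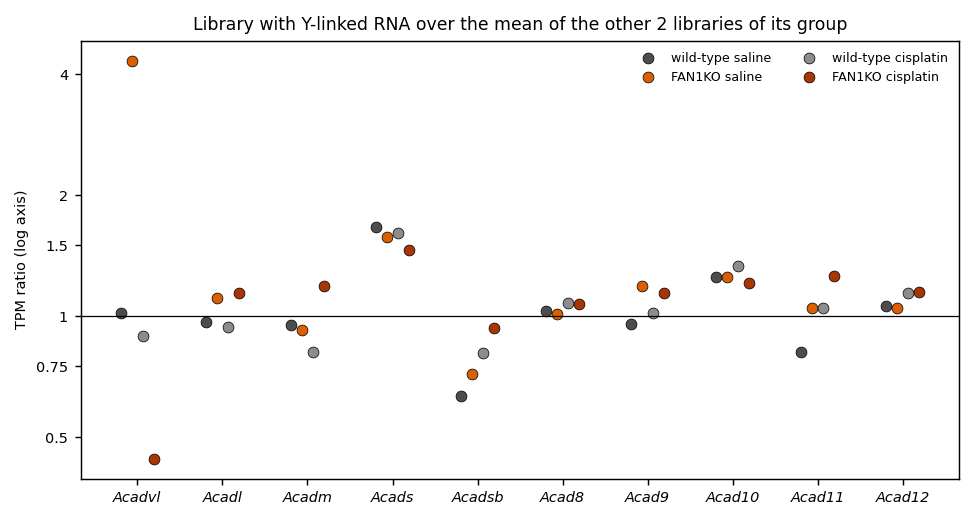
For each member and group, the TPM of the library with Y-linked RNA divided by the mean of the group's other 2 libraries, on a log axis; the line marks equal values. Acads lay above the line in all 4 groups (1.46 to 1.67) and so did Acad10 (1.21 to 1.33), Acadsb lay below it in all 4 (0.633 to 0.937), and Acadvl ranged from 0.442 to 4.32.

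The last 4 members have less settled or broader roles. Acad9 (229211, chr3:36065979-36092857) is an assembly factor of respiratory Complex I besides an acyl-CoA dehydrogenase. Its RNA was at 57.5, 51.0 and 51.8 TPM in wild-type saline, 46.6, 38.9 and 39.7 TPM in FAN1KO saline, 50.4, 46.5 and 52.1 TPM in wild-type cisplatin and 26.1, 25.8 and 29.7 TPM in FAN1KO cisplatin kidneys. The genotypes did not overlap under either treatment. Under cisplatin Acad9 fell 1.82-fold (log2 −0.85, SE 0.10, limma adjusted p = 6.97e-04), and under saline the difference was −0.35 (SE 0.10, adjusted p = 0.256). Some 13.5% of its 50-base stretches recur elsewhere, mostly in the predicted gene Gm43079.

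Acad11 (102632, chr9:104063724-104127656) is linked to the oxidation of long-chain and hydroxylated acyl-CoAs. It was at 116, 104 and 89.6 TPM in wild-type saline, 113, 105 and 111 TPM in FAN1KO saline, 104, 96.6 and 101 TPM in wild-type cisplatin and 58.3, 60.9 and 75.2 TPM in FAN1KO cisplatin kidneys. FAN1KO cisplatin kidneys alone stood apart, and every one of them lay below the other 9 libraries. The saline difference between genotypes was 0.10 (SE 0.12, limma adjusted p = 1.000). Under cisplatin Acad11 fell 1.55-fold (log2 −0.63, SE 0.12, adjusted p = 0.00500), and the interaction was −0.73 (SE 0.17, adjusted p = 0.0338; between 0.0160 and 0.0909 when each library was left out in turn). Its transcript shares 14.8% of its 50-base stretches, chiefly with Ackr4, which lies within the gene.

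Acad10 (71985, chr5:121621026-121660603) and Acad12 (338350, chr5:121598277-121618938) are neighbours, and 20.4% and 20.7% of their 50-base stretches recur in the transcripts of other genes, nearly all of them in each other, so their reads may be split between them. Acad10 was at 65.1, 58.7 and 77.5 TPM in wild-type saline, 66.8, 57.9 and 48.5 TPM in FAN1KO saline, 76.7, 55.3 and 59.8 TPM in wild-type cisplatin and 31.6, 31.8 and 38.3 TPM in FAN1KO cisplatin kidneys. Acad12 was at 38.0, 35.9 and 39.1 TPM, 34.1, 34.5 and 30.4 TPM, 37.6, 30.8 and 35.5 TPM, and 19.5, 20.2 and 22.8 TPM in the same order. For both, the FAN1KO cisplatin libraries were the lowest 3 of 12. Under cisplatin Acad10 fell 1.89-fold with the genotype (log2 −0.89, SE 0.16, limma adjusted p = 0.00451) and Acad12 1.66-fold (log2 −0.70, SE 0.11, adjusted p = 0.00183). Acad10 was also highest in the library with Y-linked RNA in every group, with a coefficient of 0.09 per unit (SE 0.017, adjusted p = 0.00180). Brap overlaps Acad10.

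Taking the members as a list, 7 of 10 were called lower in FAN1KO than in wild-type kidneys under cisplatin and 0 higher, where 4.37% of all genes tested were called lower and 19.6% higher. The 3 that were not called (Acadl, Acads and Acadsb) also had negative differences. In 9 members, all but Acads, the 3 FAN1KO libraries lay below the 3 wild-type libraries, as they did in 8.60% of all genes. The median log2 fold change was −0.66 over the members and 0.24 over all genes tested. Median-ratio scaling took the latter to −0.024 and changed the split of all calls from 654 lower and 2931 higher to 1154 and 1300, with 8 members called lower. All 10 members were called lower with the Y-linked term, and also in the 8 libraries without Y-linked RNA. Both fits also called more of all genes, 1288 lower and 6035 higher with the term and 1162 lower and 4328 higher in the 8 libraries. The exact permutation test of 3 against 3 mice gave p = 0.1 for each of the 9 that did not overlap, the smallest it allows.

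Under saline, 1 member (Acadm) was called lower and 0 higher, against 0.427% of all genes lower and 0.341% higher, and 5 members (Acadvl, Acadm, Acad8, Acad9 and Acad12) did not overlap between genotypes, against 7.83% of genes lower. The Acadm call was lost without wild-type saline mouse 1, 2 or 3, FAN1KO saline mouse 1 or 3, or FAN1KO cisplatin mouse 2 (adjusted p 0.0539 to 0.116). The median was −0.16 over the members and −0.04 over all genes. In the 8 libraries without Y-linked RNA, Acadvl was called as well (log2 −2.93, limma adjusted p = 0.0108), and with the Y-linked term its adjusted p was 0.0582.

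Cisplatin against saline gave 8 members lower in FAN1KO mice, all but Acadvl and Acads, where 4.90% of all genes were lower and 34.9% higher. This comparison and the genotype comparison under cisplatin share the FAN1KO cisplatin libraries. The median was −0.60 over the members and 0.37 over all genes, or −0.030 over all genes with median-ratio scaling, where 8 members were again lower and all calls split into 2101 lower and 2157 higher in place of 733 and 5229. Acadvl differed by 0.30 (SE 0.54, limma adjusted p = 0.681), and the FAN1KO saline and cisplatin libraries overlapped. Without the 4 libraries with Y-linked RNA, among them the high FAN1KO saline mouse, that difference was 1.33 (adjusted p = 0.0167). That fit called 6647 of all 14972 genes tested higher and 1256 lower, so such a call was common. In wild-type mice limma called 0 members, 0 members had an unadjusted p under 0.05, and 0 were called with voom on reads recovered from the TPM. The member differences there ran from −0.20 to 0.12, and 0.0601% of all genes were called higher and 0 genes lower.

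The test of whether the genotype effect differed between treatments called 2 members, Acadm and Acad11, both lower, against 1.02% of genes lower and 5.22% higher. With 1 library left out, both calls stood only without FAN1KO cisplatin mouse 3. A further 4 members (Acad8, Acad9, Acad10 and Acad12) had an unadjusted p under 0.05, with adjusted p of 0.0656 to 0.154. For Acadvl the difference was 0.18 (SE 0.76, adjusted p = 0.910), an error too wide to tell a larger from a smaller effect.

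The 2 genes were also set against the other 8 members within each library, a measure that no scaling of a library can change. Acadm lay above their geometric mean by 3.89 to 4.03 on the log2 scale in wild-type saline, 3.16 to 3.47 in FAN1KO saline, 3.58 to 4.03 in wild-type cisplatin and 2.88 to 2.96 in FAN1KO cisplatin kidneys. Its FAN1KO ranges lay below its wild-type ranges, so it was lower relative to the rest of the family as well. Acadvl lay above it by 1.78 to 2.02, −0.95 to 1.07, 1.92 to 2.25 and −0.22 to 1.69 in the same order. As a share of the family's TPM, Acadm made up 51.3% to 54.4%, 41.5% to 51.5%, 46.2% to 52.8% and 34.7% to 40.0%. These ratios are given without a test because the pair was singled out with earlier results known.

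**Figure D4:**
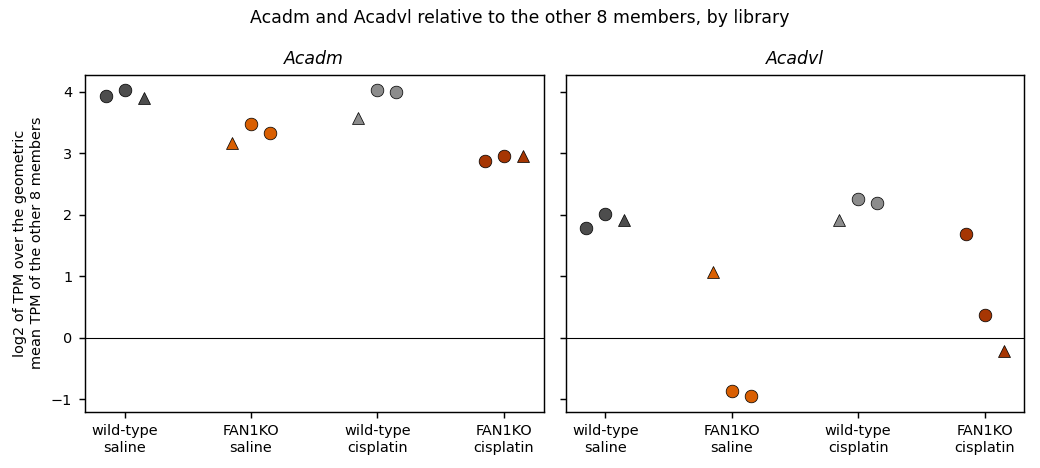
Log2 ratio of Acadm (left) and Acadvl (right) TPM to the geometric mean TPM of the other 8 members in each library; triangles mark libraries with Y-linked RNA and the line marks equal levels. Acadm lay at 2.88 to 3.47 in FAN1KO and 3.58 to 4.03 in wild-type kidneys, and Acadvl spread from −0.95 to 1.69 in FAN1KO kidneys against 1.78 to 2.25 in wild-type kidneys.

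In order of start position on the chromosome, the tested genes next to Acadm were Snord45b, a small nucleolar RNA, and Tyw3, a tRNA-modifying enzyme. Snord45b lies inside Rabggtb (chr3:153907289-153912966), whose end is nearer to Acadm. Tyw3 is not adjacent, as it starts at position 154576520 and Acadm ends at 153944643. Tyw3 was at a mean of 17.1 TPM in wild-type saline, 9.95 in FAN1KO saline, 16.4 in wild-type cisplatin and 4.71 TPM in FAN1KO cisplatin kidneys. It fell with the genotype under cisplatin (log2 −1.60, SE 0.17, limma adjusted p = 3.50e-04) and was at −0.73 under saline (SE 0.17, adjusted p = 0.106). Of the 10 genes around Acadm it was the one called lower under cisplatin, and Zranb2, an RNA-binding splicing protein, was the one called higher (log2 0.32, SE 0.09, adjusted p = 0.0285). Of the 10 genes around Acadvl, 0 were called lower and 3 higher under cisplatin (Elp5, Ctdnep1 and Gabarap, log2 0.32 to 0.54). Over all genes tested, 4.37% were called lower and 19.6% higher in this comparison, so such counts among neighbours are not particular to either place. Mir324, which lies inside Acadvl, differed by 0.63 (SE 0.50, limma adjusted p = 0.380). Dlg4, the nearest tested gene at higher coordinates than Acadvl, differed by 0.43 (SE 0.34, adjusted p = 0.380). Under saline limma called 0 of these 20 neighbours, and 1 had an unadjusted p under 0.05.

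**Figure D5:**
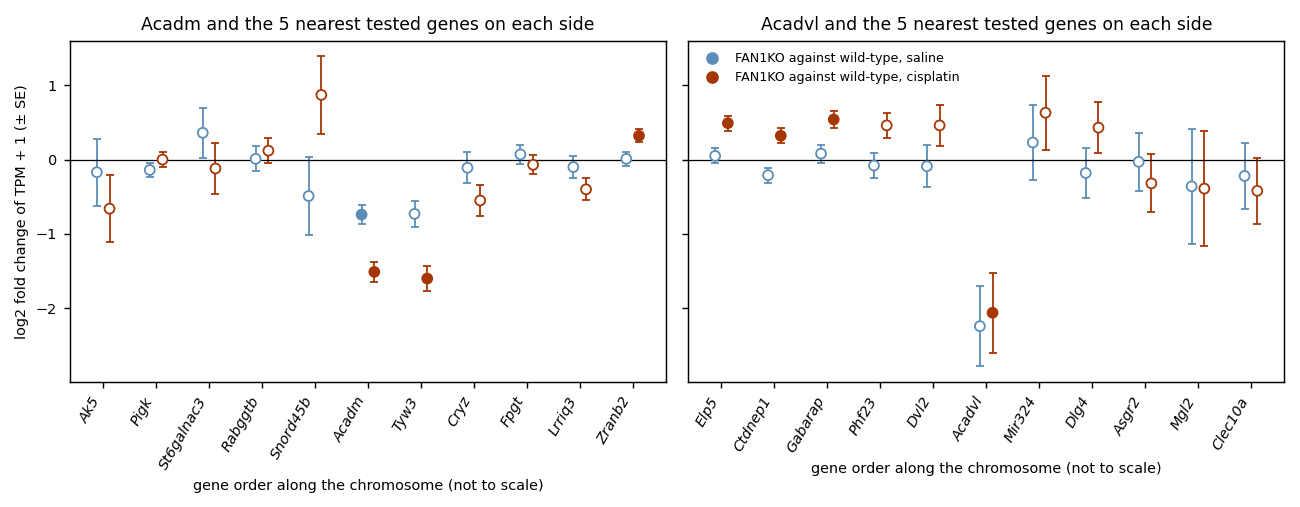
Log2 fold change of TPM + 1 (with SE, 3 mice per group) between FAN1KO and wild-type kidneys for Acadm, Acadvl and their neighbours. Neighbours are the 5 tested genes on each side in order of start position, not to scale. Filled points had an adjusted p under 0.05. Under cisplatin the value of Tyw3 (−1.60) was close to that of Acadm (−1.51), and no neighbour of Acadvl had a value near its −2.06.

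Tyw3 was also the gene whose log2(TPM + 1) most resembled that of Acadm over the 12 libraries (Pearson r = 0.98), followed by Cryzl2 (0.969), Aldh3b3 (0.967) and Adi1 (0.966). Ranked by Spearman rho, Agmat and Acy1 shared the highest value (0.951). The 4 genes named by Pearson r lay lower in FAN1KO than in wild-type cisplatin kidneys in all 3 libraries. Acadvl had less close matches, Ocel1 (0.899), Ilrun (0.896), Pde4c (0.874), the gene numbered 74937 (0.868) and Vps9d1 (0.867). Ocel1 ranged over 31.7 to 42.0, 10.2 to 24.0, 38.7 to 39.8 and 13.2 to 26.1 TPM in the 4 groups, and like Acadvl did not separate the 2 FAN1KO groups. The libraries behind these coefficients share their group means.

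The enzymes and carriers around the family were read from lists of their functions. The other 2 acyl-CoA dehydrogenases, Ivd of leucine and Gcdh of lysine breakdown, were both lower in FAN1KO cisplatin than in wild-type cisplatin kidneys. Gcdh fell from a mean of 375 to 192 TPM (log2 −0.98, SE 0.13, limma adjusted p = 0.00124) and Ivd from 253 to 170 TPM (log2 −0.55, SE 0.18, adjusted p = 0.0467). Of the 3 electron acceptors, Etfa, a subunit of the electron transfer flavoprotein, fell from 418 to 248 TPM (log2 −0.74, SE 0.11, adjusted p = 0.00155). Etfdh, the oxidoreductase that hands the electrons to ubiquinone, fell from 127 to 95.6 TPM (log2 −0.40, SE 0.12, adjusted p = 0.0344). The partner subunit Etfb was at 1338 and 1147 TPM (log2 −0.20, SE 0.19, adjusted p = 0.476). Under saline limma called 0 of these 5 genes, and 0 had an unadjusted p under 0.05.

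Among 17 genes of the carnitine shuttle and the later steps of beta-oxidation, 8 were lower and 0 higher under cisplatin, with a median of −0.56. The called genes with the largest differences were Acat1, the mitochondrial thiolase that cleaves acetoacetyl-CoA (log2 −1.18), Hadh (−0.77), which oxidizes the hydroxyacyl-CoA, and Echs1 (−0.67), which hydrates the enoyl-CoA that a dehydrogenase leaves. Branched-chain acyl-CoA breakdown, in which Acadsb and Acad8 act, had 12 of 15 genes lower and 0 higher, with a median of −0.70. Hibadh (log2 −1.09) and Aldh6a1 (−1.08) follow Acad8 in valine breakdown, and Mmut (−1.01) is the mutase at its end. Of 5 measured partners of Acad9 in Complex I assembly, 1 was lower, Ecsit (log2 −0.42), and 0 were higher, with a median of 0.00. None of 5 genes of riboflavin and FAD supply, the cofactor of every member, was called by limma (0 at an adjusted and 0 at an unadjusted p under 0.05), with a median of −0.06. Among 10 regulators of fatty acid oxidation, Ppard (log2 −1.13) and Hnf4a (−0.52) were lower and Tfeb (0.51) higher, while Ppara (−0.14), Esrra (−0.12) and Ppargc1a (0.14) were not called.

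Markers of cell types moved in the same comparison. Of 10 proximal tubule markers 7 were lower in FAN1KO than in wild-type cisplatin kidneys and 0 higher (Slc22a6 −2.04, Lrp2 −1.44, Slc34a1 −1.17), with a median of −0.82. Their summed TPM was 11376 to 11824 in wild-type saline, 11735 to 13784 in FAN1KO saline, 10512 to 12553 in wild-type cisplatin and 5603 to 8181 in FAN1KO cisplatin kidneys. In these bulk samples fewer proximal tubule cells and less RNA per cell cannot be told apart. The saline difference in Acadm and Acadvl stood beside proximal tubule sums that overlapped between genotypes, with 0 of 10 markers called by limma and 1 at an unadjusted p under 0.05. All 4 tubule injury markers were higher in FAN1KO than in wild-type cisplatin kidneys (Krt20 4.58, Lcn2 4.41, Havcr1 3.16, Vcam1 1.84). They summed to 778 to 1155 TPM in FAN1KO cisplatin kidneys and 6.86 to 148 TPM in the other groups. Leukocyte markers summed to 20.3 to 60.2 TPM in FAN1KO cisplatin kidneys and at most 20.5 TPM elsewhere, with 1 of 5 (Cd68) higher. Collecting duct markers summed to 1029 to 1630 TPM against at most 783 TPM elsewhere, with 2 of 5 higher (Aqp2, Aqp3). The 3 red cell genes measured were all lower, at 5.54 to 72.4 TPM against 532 to 6531 TPM in the other groups. Of 3 distal convoluted tubule markers 1 was called lower (Pvalb, −4.63) and 0 higher. Slc12a3 went the other way, with means of 436 TPM in FAN1KO and 285 TPM in wild-type cisplatin kidneys. The sums of this list overlapped, at 254 to 629 and 390 to 728 TPM in the same order. Limma called 0 of the thick ascending limb, podocyte, endothelial and fibroblast markers, where 1 (Cldn16) had an unadjusted p under 0.05. No marker was at 0 in any library, and the part of these cell types in the members' differences was not tested.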

How the data were processed

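RNA from 12 mouse kidneys was sequenced in paired reads, and the authors deposited 1 table of TPM (transcripts scaled to a total of 1000000) for 27179 genes. The genome build given in the submitters' processing notes is mm10, and the notes name limma; the aligner and annotation are not given in the sources used here. Groups and replicate numbers came from the sample labels, and 0 columns were left out. Gene names and coordinates came from RefSeq GRCm38.p6, the same assembly as mm10 (1904 identifiers had no name), and transcripts from GENCODE on that assembly.

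TPM steps gave whole reads for all 232991 values above 0 (100% within 0.05 reads), used for depth and 1 alternative. The 14972 genes that reached a TPM of 1 in 3 or more libraries were fitted as log2(TPM + 1) by limma 3.58.1 in R 4.3.3, with 4 group means, a mean-variance trend and Benjamini-Hochberg adjustment over all genes at a threshold of 0.05. A fold change on this scale understates that of low genes. The fit was tested on simulated data with 200 genes changed 2-fold. It recovered 169 of them and also called 21 unchanged genes. The simulated data had the same dispersion for every gene, as many rises as falls and no split by Y-linked RNA. They therefore do not measure the share of false calls in the real comparisons. Intervals were not used, and counting error at the lowest member count, 971 reads, was 3.21%. Errors are SE of limma or SD over mice.

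The named genes were all members, the 5 genes most like Acadm and Acadvl (1 of these is not reported here), up to 3 called genes with the largest change per list, all electron acceptors and the nearest neighbours. The members and lists were chosen with earlier results of these data known. Alternatives were another pseudocount, no filter, other scalings, a Y-linked covariate, voom, a replicate block and each library left out; the fit to the 8 libraries without Y-linked RNA was chosen after seeing the data.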

Additional observations from a re-analysis of the deposited data

Results flagged for a closer look

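The genotype effect on 2 members differed between treatments by the interaction test. For Acadm the FAN1KO minus wild-type log2 difference was −0.74 under saline and −1.51 under cisplatin, a difference of −0.78 (SE 0.18, limma adjusted p = 0.0331). The adjusted p ranged from 0.00768 to 0.0916 over 21 alternatives and passed 0.05 in 10 of them. For Acad11 it was 0.10 under saline and −0.63 under cisplatin, a difference of −0.73 (SE 0.17, adjusted p = 0.0338), with adjusted p from 0.00821 to 0.0909 and 8 of 21 alternatives under 0.05. Both genes had a negative interaction in all 21, and both kept the lowest 3 values of 12 in FAN1KO cisplatin kidneys.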

How the results depend on the processing

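Of the values recomputed under 22 alternatives, 993 kept their direction and side of the threshold, 55 fell short of it, 20 newly passed it and 22 changed sign, all of these last not called.

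Under cisplatin 6 to 7 members were called lower with 1 library at a time left out. For the genotype under saline the count of 1 became 0 with no filter, with only the comparison's 6 libraries, with median-ratio scaling and with the replicate block, 0 to 1 with 1 library left out (Acadvl in place of Acadm without FAN1KO saline mouse 1), and 2 in the 8 libraries without Y-linked RNA. For the interaction the count of 2 became 6 with the Y-linked covariate, 1 without the variance trend, 0 with the replicate block, 3 in the 8 libraries (Acad10 in addition, adjusted p 0.0372), 2 with median-ratio scaling (Acadsb, 0.0434, in place of Acad11, 0.0643), and 0 to 2 with 1 library left out (1 without wild-type saline mouse 1 or wild-type cisplatin mouse 1, 2 without FAN1KO cisplatin mouse 3, 0 without any other). In FAN1KO mice cisplatin gave 1 member higher (Acadvl) in the 8 libraries, in place of 0, where 6647 of all genes tested were higher and 1256 lower. The cause of these moves was not tested.

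Deviations of same-numbered mice had mean correlations of −0.243, −0.208, −0.144 and −0.184 in the 4 comparisons. These values cannot tell whether replicate numbers pair the mice. The library with Y-linked RNA was number 3 in wild-type saline, 1 in FAN1KO saline, 1 in wild-type cisplatin and 3 in FAN1KO cisplatin kidneys. In every comparison it thus had a different number in each group. With the replicate block, 7 members stayed lower under cisplatin, and Acadm's saline adjusted p was 0.0548.

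Sign changes were as follows. Without Y-linked libraries, the saline genotype differences of Acadl, Acadsb and Acad11 became −0.03, −0.04 and −0.02. With median-ratio scaling, cisplatin against saline became −0.16 for Acadvl in FAN1KO and −0.07 for Acadl in wild-type mice, and the Acadvl interaction −0.18. With 1 library left out, the saline genotype difference ranged from −0.01 to 0.10 for Acadl, −0.34 to 0.12 for Acads and −0.19 to 0.18 for Acadsb. The cisplatin difference of Acadvl in FAN1KO mice ranged from −0.20 to 0.99, and its interaction from −0.32 to 0.87. In wild-type mice the cisplatin difference ranged from −0.32 to 0.15 for Acads, −0.21 to 0.03 for Acad10 and −0.13 to 0.05 for Acad11.

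The exact permutation test cannot pass 0.05 with 3 against 3 mice (smallest p 0.1). In place of limma it would call no member in any comparison whatever the values, so it was not used for counts. Counts over all genes also moved: with the Y-linked covariate 1288 genes were lower and 6035 higher for the genotype under cisplatin, against 654 and 2931, and under saline 248 and 173, against 64 and 51; the comparison's 6 libraries alone gave 454 and 1721, and 16 and 11. For the interaction, 153 lower and 782 higher became 646 and 4088 with the covariate and 73 and 351 with the block. In the 8 libraries without Y-linked RNA the interaction gave 434 lower and 2004 higher. Depth limited no member, as each had at least 971 reads.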

Other observations

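Acads was further compared with all other genes over the 12 libraries, a comparison chosen after its values were seen. The genes with the highest Pearson r were Slc5a8 (0.985), a carrier of short-chain monocarboxylates, Atrnl1 (0.984), Pank1 (0.983), Coasy (0.982) and Akr1c14 (0.976). Pank1 and Coasy act at the first and last steps of making coenzyme A, the carrier of every acyl group that Acads handles. Pank1 ranged over 62.0 to 174 TPM in wild-type saline, 49.4 to 164 in FAN1KO saline, 56.9 to 179 in wild-type cisplatin and 33.2 to 61.4 TPM in FAN1KO cisplatin kidneys, and Coasy over 159 to 293, 130 to 254, 132 to 263 and 104 to 148 TPM. These coefficients are descriptions, over libraries that share the split by Y-linked RNA.

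By Spearman rho, the genes most like Acadvl included BC018473 on chromosome 11 (0.916), a gene of the same chromosome as Acadvl. It was at 2.74 to 3.40 TPM in wild-type saline and 3.53 to 6.01 TPM in wild-type cisplatin kidneys, and at 0 to 0.0210 and 0 to 0.0293 TPM in the FAN1KO groups, so it separated the 6 FAN1KO from the 6 wild-type libraries where Fan1 did not. Retnla (0.908) was at 4.57 to 17.8 and 3.07 to 23.1 TPM in wild-type and at 0 to 0.458 and 0 to 2.72 TPM in FAN1KO kidneys.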
